A study of Homo sapiens with 6 samples.

Results

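Cells detect ribosomes that stop or collide on a messenger RNA and take them apart, and 10 genes of that response were followed here in Kasumi-1 cells: PELO, HBS1L, NEMF, LTN1, GIGYF2, EIF4E2, ASCC3, MAP3K20, EDF1 and GCN1. A probe set is a group of short probes read together as 1 signal, and it may detect more than 1 transcript. Every probe set was taken if the array annotation gave a single gene and that gene was 1 of the 10. MAP3K20 was formerly ZAK and GCN1 formerly GCN1L1. The rule found 35 of the 54613 probe sets that are not controls, and 32 of these were bright enough to be tested. Kasumi-1 is an established acute myeloid leukaemia line with the t(8;21) translocation, which joins RUNX1 to RUNX1T1. Cultures in serum-containing medium received vehicle or 20 nM homoharringtonine (HHT) for 24 h, and the RNA was read on 3 HG-U133 Plus 2.0 arrays per group. It is 1 line, at 1 dose and 1 time. The labels do not say whether the 3 arrays of a group were separate cultures, so p-values measure only the spread between these arrays, which may be technical.

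A ribosome that stalls is struck by the one behind it, and the collided pair is the signal that starts the response. EDF1 and the ubiquitin ligase ZNF598 recognise the pair, the helicase ASCC3 pulls the leading ribosome apart, and GIGYF2 with the cap-binding protein EIF4E2 blocks new initiation on the same messenger. PELO and HBS1L split ribosomes that stand empty or at a messenger's end, after which NEMF and the ubiquitin ligase LTN1 mark the unfinished chain on the large subunit for destruction. MAP3K20 and GCN1 carry the signal to stress kinases. HHT is a plant alkaloid that occupies the ribosome's peptidyl transferase centre and blocks elongation.

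Promoter sequence is shown for 3 members that stand for the patterns described below: NEMF, higher on all its probe sets, EIF4E2, lower on most, and GIGYF2, the partner of EIF4E2. The 250 bases before the RefSeq start (GRCh38.p14) are written 5′ to 3′ on the gene's strand. Capitals mark CCAAT in NEMF (chr14:49852789-49853038, minus strand), GGGCGG in EIF4E2 (chr2:232550439-232550688, plus strand) and CACGTG, the E-box that MYC and MAX bind, in GIGYF2 (chr2:232697081-232697330, plus strand), each on either strand.
NEMF: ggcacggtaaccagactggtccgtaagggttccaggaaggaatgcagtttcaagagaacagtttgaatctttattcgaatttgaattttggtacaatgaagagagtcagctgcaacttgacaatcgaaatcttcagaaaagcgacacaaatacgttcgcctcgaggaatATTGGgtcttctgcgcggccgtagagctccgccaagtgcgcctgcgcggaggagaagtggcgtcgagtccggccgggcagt
EIF4E2: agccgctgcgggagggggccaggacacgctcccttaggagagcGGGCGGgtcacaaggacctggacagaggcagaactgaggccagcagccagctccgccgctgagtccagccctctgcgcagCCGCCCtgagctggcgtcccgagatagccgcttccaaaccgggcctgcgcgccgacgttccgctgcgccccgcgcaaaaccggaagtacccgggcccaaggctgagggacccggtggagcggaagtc
GIGYF2: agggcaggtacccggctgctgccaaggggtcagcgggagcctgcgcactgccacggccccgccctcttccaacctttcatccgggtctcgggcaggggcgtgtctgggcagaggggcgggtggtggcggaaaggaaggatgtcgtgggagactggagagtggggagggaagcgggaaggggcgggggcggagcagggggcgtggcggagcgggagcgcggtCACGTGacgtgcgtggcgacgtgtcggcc
Of 10 such stretches in the table (EIF4E2 has 2 and ASCC3 is not among them), 1 held CACGTG, that of GIGYF2, against 6.34% of all 35116 promoters of this length. CCAAT was in 3 (NEMF, LTN1 and EDF1, against 32.0%) and GGGCGG in 5 (both of EIF4E2, and GIGYF2, MAP3K20 and EDF1, against 42.6%). TGATGNAA, which covers ATF4 sites, was in none (3.14% of all), and the NF-kB motif was in 1, that of PELO (5.21%). Motifs were searched on both strands, none contains another, and a match is a description of letters only.

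Values are log2 signals, so 1 unit is a 2-fold difference, and differences are given as HHT minus vehicle. Array medians lay between 5.82 and 5.96 in vehicle and between 5.53 and 5.78 in HHT. The 18 hybridisation controls, transcripts added in equal amounts, averaged 11.98 in vehicle and 11.70 in HHT, and all 18 were lower in HHT (exact permutation p = 0.1, two-sided, the smallest that 3 against 3 can give). The arrays were therefore also rescaled to equal medians (median scaling), to equal hybridisation controls (control scaling) and to 1 shared distribution (quantile normalization), and calls that these change are named below. Of the Kasumi-1 markers, KIT, MPO, RUNX1T1 and CD34 had vehicle means of 14.83, 14.39, 13.23 and 9.20, SPI1 was near the filter level at 4.81, and CD33 was not analysed here. KIT, CD34 and MPO fell, with differences of -0.62, -1.18 and -1.76, and RUNX1T1 and SPI1 were not called. The log2 of the summed antilog signal of these markers ran from 15.83 to 16.00 in vehicle and from 15.06 to 15.15 in HHT. Of 15 markers of T, B, red, epithelial and fibroblast cells, 8 were tested, none rose, and EPCAM and COL1A1 fell. CD3D (11.62 in vehicle) and EPCAM (13.69) were bright, whereas CD3E and CD3G of the same T cell complex were at 5.84 and 4.19 and the epithelial genes KRT19 and CDH1 at 2.69 and 4.91. No marker was at 0 on any array. The summed signal of the 3 epithelial markers ran from 13.67 to 13.71 in vehicle and from 12.86 to 13.02 in HHT on the log2 scale. That of the T cell markers ran from 11.63 to 11.68 and from 11.70 to 11.89, that of the B cell markers from 7.50 to 7.95 and from 7.14 to 7.90, that of the red cell markers from 6.44 to 7.39 and from 6.07 to 6.73, and that of the fibroblast markers from 7.47 to 8.14 and from 6.99 to 7.52. Their part in the results was not tested.

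HHT did not move the 10 genes in a common direction. By the brightest probe set of each gene, NEMF, ASCC3 and MAP3K20 rose, PELO, EIF4E2, GCN1 and GIGYF2 fell, and HBS1L, LTN1 and EDF1 were not called. With the mean of each gene's tested probe sets, NEMF still rose and PELO, EIF4E2 and GCN1 still fell, while ASCC3 (0.17, adjusted p = 0.139), MAP3K20 (0.12, adjusted p = 0.142) and GIGYF2 (-0.11, adjusted p = 0.516) were not called. The threshold for a call was an adjusted p below 0.05 by limma, with Benjamini-Hochberg adjustment over all 32768 probe sets tested. That made 7 of 10 genes called, where 53.8% of all 13572 genes were, with 3 of 10 higher (29.6% of all) and 4 of 10 lower (24.2% of all). Over probe sets, 21 of 32 were called (46.3% of all), with 10 higher (23.0% of all) and 11 lower (23.3% of all). The groups did not overlap for 24 of 32 probe sets, against 55.9% of all, and for 8 of 10 genes, against 62.2% of all. The median difference of the 10 genes was -0.04, beside -4.15e-05 for all genes. These called shares of the members lay above those of the whole array, that of risen genes only just, and rises and falls were about even. This is a description given without a test, and for genes it depended on the summary. With the mean of probe sets 1 member gene rose and 3 fell, where 6660 of all 13572 genes were called, so the called share of member genes was then not above that of the array. RNA was measured in bulk, so fewer cells of a kind and less RNA per cell cannot be told apart.

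**Figure D1:**
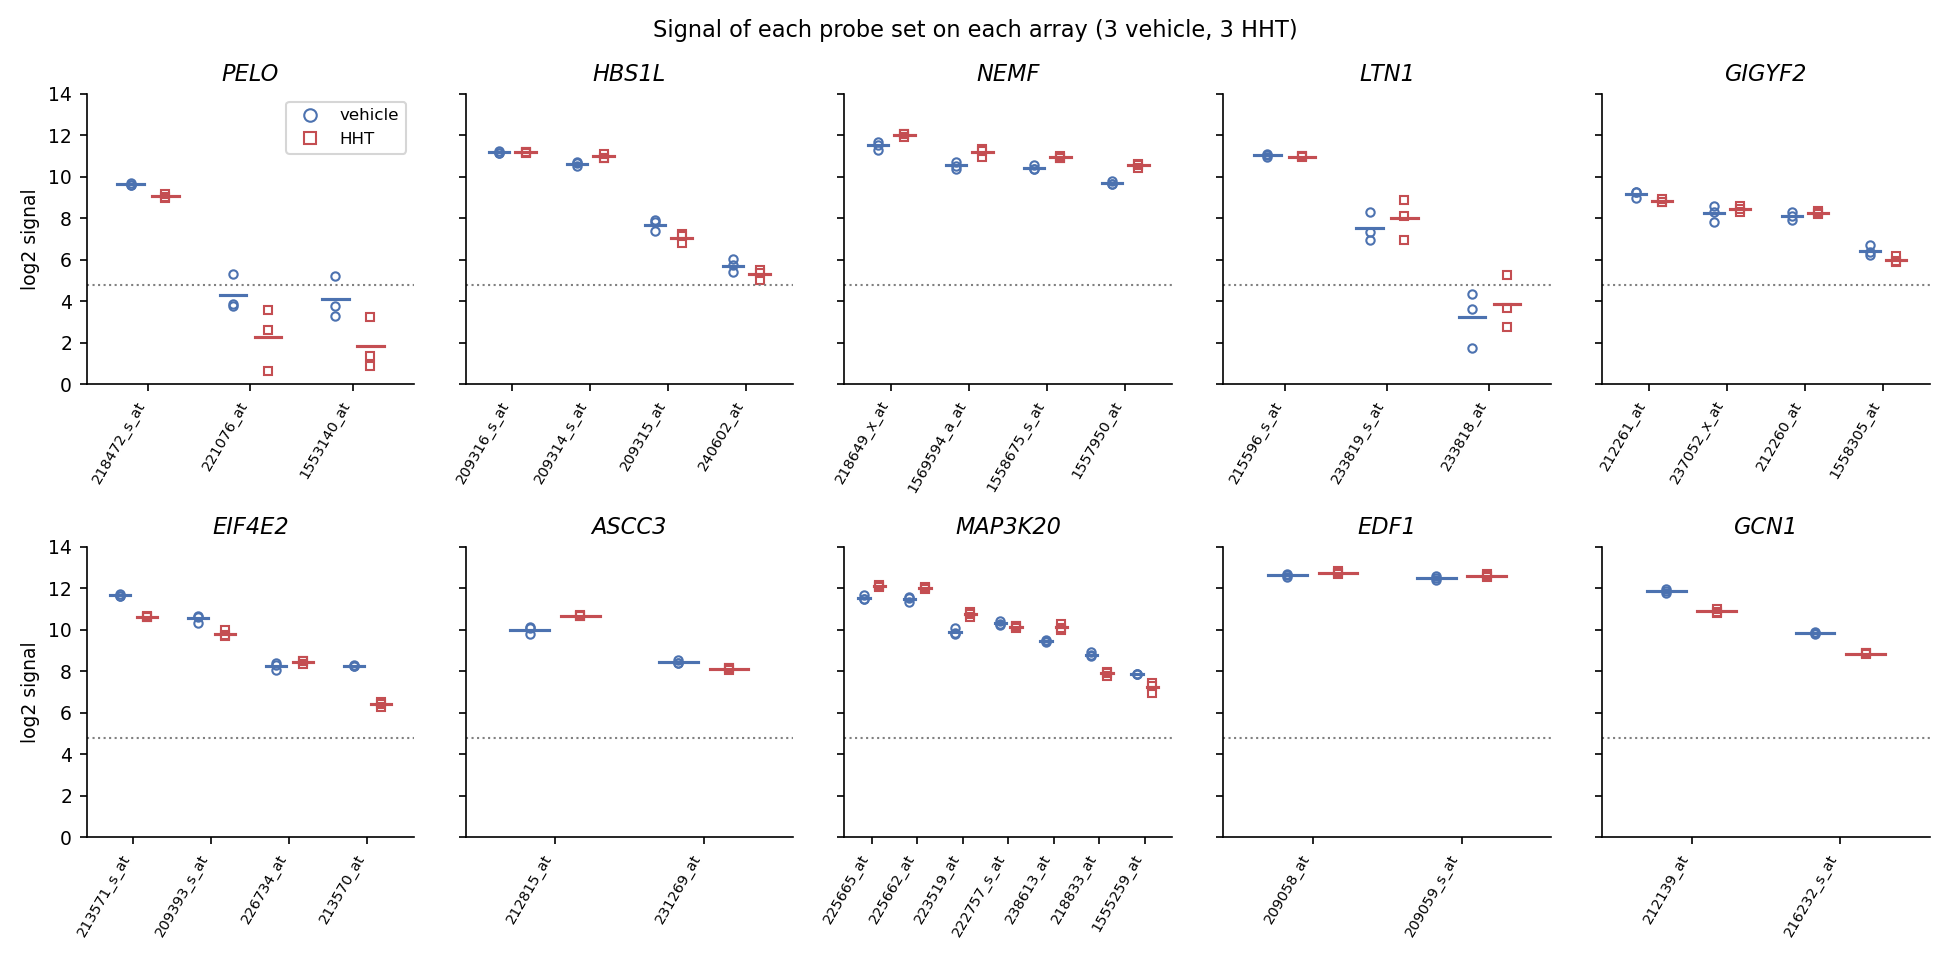
Log2 signal of all 35 probe sets of the 10 genes on each array, with vehicle as circles, HHT as squares and group means as bars. The dotted line is the filter level of 4.80, and the dim probe sets of PELO (2) and LTN1 (1) have group means below it, while EIF4E2 and GCN1 separate clearly between groups.

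**Figure D2:**
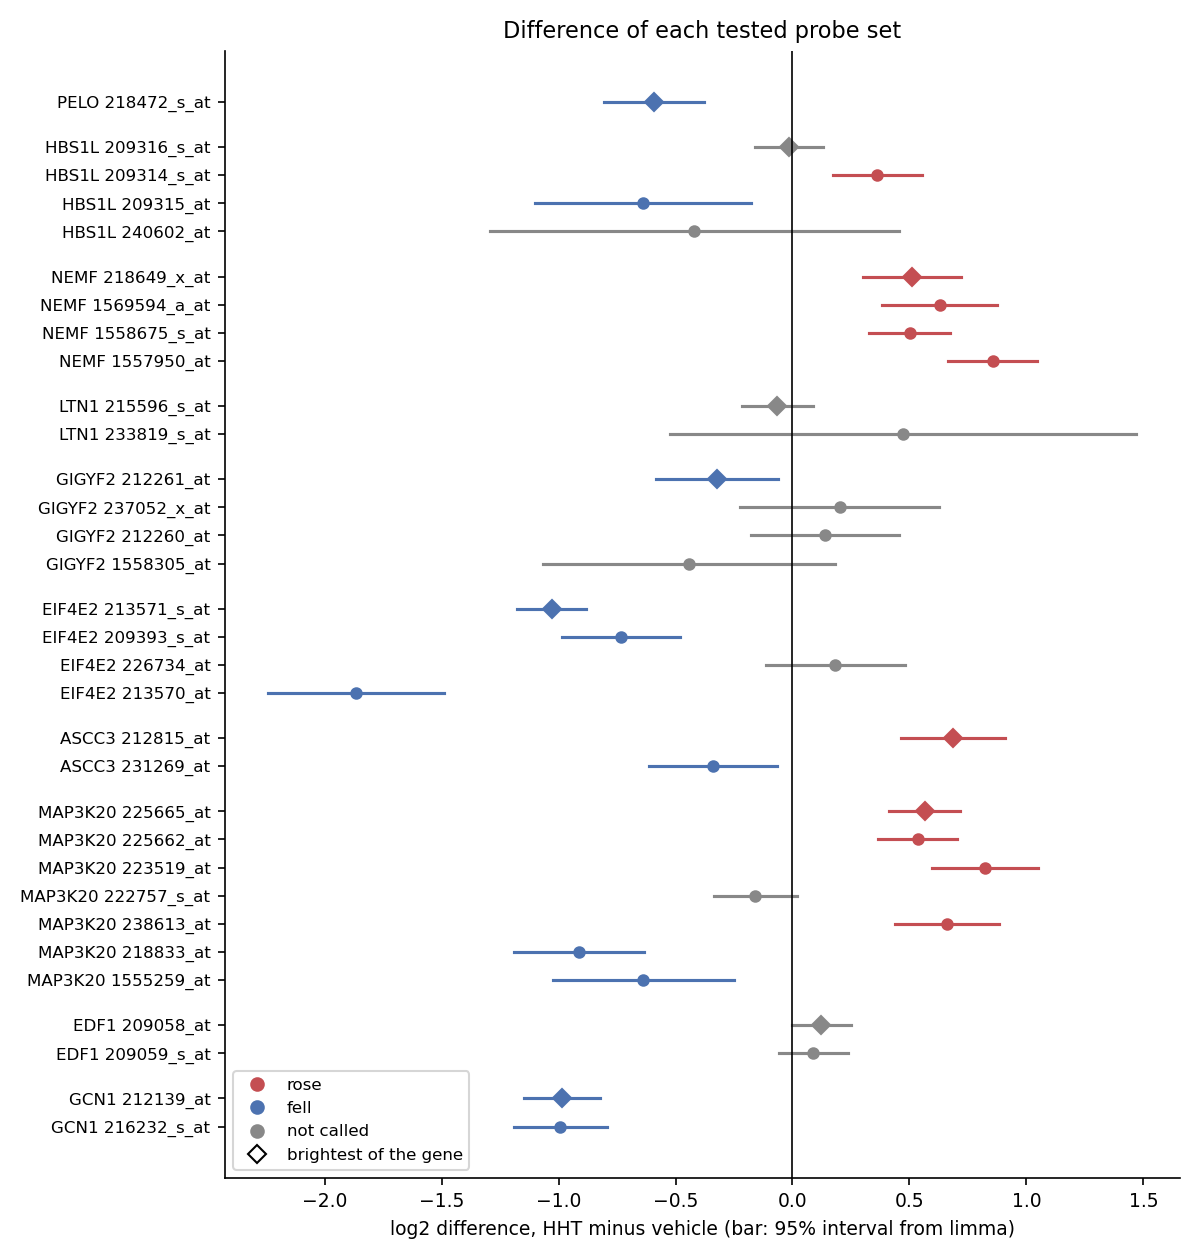
Log2 difference, HHT minus vehicle, of the 32 tested probe sets with 95% intervals from limma, coloured by call, with a diamond for the brightest probe set of each gene. All 4 NEMF probe sets lie above 0 and both GCN1 probe sets near -1, whereas MAP3K20, HBS1L and ASCC3 have called probe sets on both sides of 0.

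PELO, the release-factor relative that enters the empty A site of a stalled ribosome, fell. Its probe set 218472_s_at read 9.61, 9.60 and 9.69 in vehicle and 8.96, 9.004 and 9.16 in HHT. All 3 HHT arrays were below all 3 vehicle arrays, a difference of -0.59 (SE 0.0962, adjusted p = 0.000455 by limma), or 1.51-fold lower. Under median scaling the difference was -0.36 and was not called (adjusted p = 0.0605), while under control scaling it was -0.31 and called. The other PELO probe sets, 221076_at and 1553140_at, averaged 4.30 and 4.08 in vehicle and 2.27 and 1.82 in HHT, below the filter level, so no fold is given. PELO lies inside ITGA1 on the same strand in RefSeq. The ITGA1 probe sets averaged 2.97 to 5.33 in vehicle and 2.04 to 3.22 in HHT and were too dim to test.

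HBS1L, the GTPase that delivers PELO to the ribosome, gave no single answer across its probe sets. The brightest, 209316_s_at, read 11.24, 11.13 and 11.15 in vehicle and 11.20, 11.16 and 11.12 in HHT. The groups overlapped, and the difference of -0.02 had a 95% interval from -0.16 to 0.13 (adjusted p = 0.869 by limma). It became 0.27 and called under control scaling (adjusted p = 0.0178). A second probe set, 209314_s_at, rose by 0.36 (SE 0.0854, adjusted p = 0.00506), from 10.49, 10.68 and 10.66 to 11.11, 10.91 and 10.91. A dimmer one, 209315_at, fell by 0.64 (SE 0.208, adjusted p = 0.0274), from 7.36, 7.89 and 7.81 to 7.12, 6.80 and 7.23. Neither of these pairs of groups overlapped. The call on 209315_at was lost without vehicle replicate 2 (-0.54, adjusted p = 0.0985), vehicle replicate 3 (-0.58, adjusted p = 0.0838) or HHT replicate 2 (-0.51, adjusted p = 0.103), and under median scaling or control scaling. The dimmest, 240602_at, at 5.71 in vehicle, differed by -0.42 and was not called (adjusted p = 0.417).

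NEMF was the one member whose 4 probe sets all rose. NEMF binds the large subunit that still holds an unfinished chain, recruits LTN1 and adds the alanine-rich tails of stalled products. The brightest probe set, 218649_x_at, read 11.29, 11.51 and 11.68 in vehicle and 12.05, 12.06 and 11.91 in HHT, without overlap. The difference was 0.51 (SE 0.0943, adjusted p = 0.00109 by limma), or 1.43-fold. Probe set 1557950_at went from 9.77, 9.62 and 9.64 to 10.42, 10.60 and 10.57. It rose by 0.86 (SE 0.0853, adjusted p = 1.37e-05), or 1.81-fold. The remaining probe sets, 1569594_a_at and 1558675_s_at, rose by 0.63 and 0.50. Each was also called under every alternative scaling and without any single array. NEMF shares the end of its RefSeq locus with KLHDC2 on the opposite strand, and KLHDC2 rose as well, by 0.77 (SE 0.0681, adjusted p = 6.02e-06). Whether any NEMF probe set also detects KLHDC2 was not tested.

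LTN1, the ubiquitin ligase that NEMF positions over the exit tunnel, was not called. Probe set 215596_s_at read 11.03, 11.10 and 10.95 in vehicle and 10.97, 10.97 and 10.95 in HHT. The groups overlapped, and the difference was -0.07 with a 95% interval from -0.22 to 0.09 (adjusted p = 0.466 by limma). A dimmer probe set, 233819_s_at, varied widely within both groups, from 6.92 to 8.27 in vehicle and from 6.96 to 8.88 in HHT, and its difference of 0.47 was not called (adjusted p = 0.422). The remaining one, 233818_at, averaged 3.23 and 3.88 and was not tested.

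Of the sensor and the pair that silences the messenger, EIF4E2 showed the larger change. EIF4E2 (4EHP) binds the cap without recruiting the initiation machinery. Its brightest probe set, 213571_s_at, read 11.73, 11.61 and 11.62 in vehicle and 10.61, 10.67 and 10.59 in HHT. The groups were about 1 unit apart with little spread, a difference of -1.03 (SE 0.0663, adjusted p = 7.06e-07 by limma), or 2.04-fold lower. The probe set 213570_at had the largest difference of all 32, from 8.27, 8.25 and 8.27 to 6.27, 6.42 and 6.50. It fell by 1.86 (SE 0.169, adjusted p = 7.09e-06), or 3.64-fold. Probe set 209393_s_at fell by 0.73 (SE 0.114, adjusted p = 0.000332). These 3 calls held under every alternative scaling. The fourth, 226734_at, went from 8.30, 8.07 and 8.38 to 8.33, 8.48 and 8.50 with overlap, a difference of 0.18 (adjusted p = 0.289). Under control scaling this probe set was called higher, at 0.47 (adjusted p = 0.0142).

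GIGYF2, the scaffold that holds EIF4E2, had a small and unstable change. Probe set 212261_at read 9.23, 8.96 and 9.28 in vehicle and 8.93, 8.79 and 8.78 in HHT. The groups only just did not overlap, and the difference was -0.32 (SE 0.117, adjusted p = 0.0446 by limma). The call was lost without vehicle replicate 1 (-0.28, adjusted p = 0.120), vehicle replicate 3 (-0.26, adjusted p = 0.134), HHT replicate 2 (-0.30, adjusted p = 0.124) or HHT replicate 3 (-0.30, adjusted p = 0.115). It was also lost under median scaling (-0.08) and control scaling (-0.04), with no filter (adjusted p = 0.0606) and with no variance trend (adjusted p = 0.0779). The other probe sets differed by 0.20, 0.14 and -0.44 and were not called, with adjusted p of 0.422, 0.456 and 0.227. Under control scaling 212260_at was called higher, at 0.42.

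EDF1, which binds the small subunit of collided ribosomes, was bright and nearly level. Probe set 209058_at read 12.55, 12.64 and 12.65 in vehicle and 12.70, 12.72 and 12.81 in HHT. All HHT arrays were above all vehicle arrays, but the difference of 0.12 was not called (SE 0.0576, 95% interval -0.0040 to 0.25, adjusted p = 0.104 by limma). Probe set 209059_s_at differed by 0.09, with overlap (adjusted p = 0.294). Both were called higher under each other scaling, the brighter at 0.36 under median scaling, 0.41 under control scaling and 0.28 after quantile normalization. The choice of scale thus decided the call on EDF1.

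ASCC3, the helicase of the ASC-1 complex that splits the leading collided ribosome, had its pair of probe sets called in opposite directions. The brighter, 212815_at, read 10.12, 10.08 and 9.76 in vehicle and 10.66, 10.64 and 10.72 in HHT. It rose by 0.69 (SE 0.10, adjusted p = 0.000220 by limma), or 1.61-fold, without overlap. The dimmer, 231269_at, went from 8.55, 8.38 and 8.41 to 8.13, 8.04 and 8.15, also without overlap, and fell by 0.34 (SE 0.124, adjusted p = 0.0448). The rise held under every scaling and without any array. The fall was lost on leaving out any single array. Its adjusted p was 0.122, 0.0600 and 0.0695 without vehicle replicates 1, 2 and 3, and 0.0750, 0.134 and 0.0769 without HHT replicates 1, 2 and 3, with differences between -0.37 and -0.29. It was also lost under median scaling (-0.10), control scaling (-0.06), no filter (adjusted p = 0.0675) and the replicate number as a block (adjusted p = 0.0610).

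The probe sets of MAP3K20 were called in both directions. MAP3K20 (ZAK) is the kinase that senses collided ribosomes and starts p38 and JNK signalling. The gene makes a long alpha form, which binds ribosomes, and a shorter beta form without that region. The brightest probe set, 225665_at, read 11.65, 11.48 and 11.48 in vehicle and 12.10, 12.16 and 12.03 in HHT, and rose by 0.56 (SE 0.0690, adjusted p = 6.09e-05 by limma). Probe set 223519_at rose by 0.82 (SE 0.102, adjusted p = 6.78e-05), from 9.81, 9.81 and 10.09 to 10.59, 10.75 and 10.84. The other rises were 0.66 for 238613_at and 0.53 for 225662_at. All 4 were called under every scaling and without any array.

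In the same RNA, MAP3K20 probe set 218833_at read 8.90, 8.79 and 8.71 in vehicle and 7.97, 7.90 and 7.78 in HHT. It fell by 0.91 (SE 0.125, adjusted p = 0.000142 by limma), or 1.88-fold, and was called under every scaling and without any array. Probe set 1555259_at fell by 0.64 (SE 0.174, adjusted p = 0.0117), from 7.87, 7.84 and 7.85 to 7.29, 7.41 and 6.95. That call was lost under median scaling (-0.40, adjusted p = 0.0989) and control scaling (-0.35, adjusted p = 0.159). The seventh, 222757_s_at, differed by -0.16 and was not called (adjusted p = 0.129), and its sign turned to 0.08 under median scaling and 0.12 under control scaling. The groups did not overlap for any of the 7. Which transcript form each probe set detects was not analysed here. The antisense gene MAP3K20-AS1 averaged 3.77 in vehicle and 1.93 in HHT and was too dim to test.

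**Figure D3:**
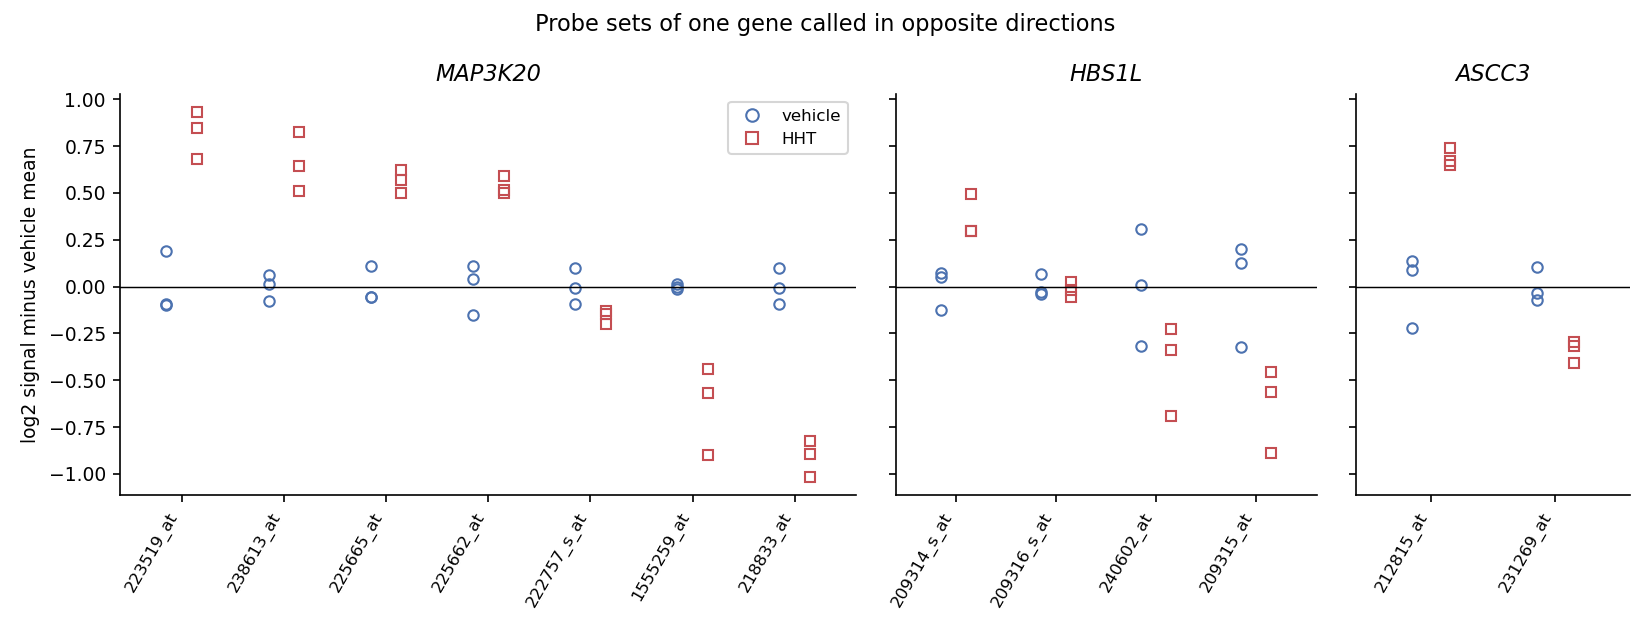
Log2 signal minus the vehicle mean of the same probe set, for each array (circles vehicle, squares HHT), for the 3 genes with probe sets called in both directions. In MAP3K20 the HHT arrays lie above vehicle for 4 probe sets and below for 3, of which 2 were called.

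Probe sets called in both directions were thus seen in 3 of the 9 members with at least 2 tested probe sets. Over all 6736 such genes the share was 5.33%. That share is not matched for the number of probe sets, and MAP3K20 alone has 7. As named above, the lower call of HBS1L and that of ASCC3 did not survive the leaving out of some arrays, so among these 3 genes MAP3K20 was the only one called both ways without any array and under every scaling.

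GCN1, the scaffold on collided ribosomes that activates the kinase EIF2AK4 (GCN2), was the most uniform of the members that fell. Probe set 212139_at read 11.86, 11.78 and 11.95 in vehicle and 10.98, 10.80 and 10.87 in HHT. The difference was -0.99 (SE 0.0732, adjusted p = 1.78e-06 by limma), or 1.98-fold lower. Probe set 216232_s_at went from 9.79, 9.90 and 9.82 to 8.87, 8.85 and 8.81, and its difference was also -0.99 (SE 0.0898, adjusted p = 6.84e-06). Neither probe set overlapped between groups, and both were called under every scaling, with 212139_at between -1.04 (quantile normalization) and -0.70 (control scaling).

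To compare partners in a step without the uncertainty of scale, the log2 signal of a gene's brightest probe set was subtracted from that of its partner on the same array, where a shift of the whole array cancels. The difference itself depends on the probes, so only its change between groups is read. PELO minus HBS1L was -1.64, -1.53 and -1.45 in vehicle and -2.24, -2.15 and -1.96 in HHT, a change of -0.58. NEMF minus LTN1 was 0.27, 0.40 and 0.74 in vehicle and 1.08, 1.09 and 0.96 in HHT, a change of 0.58. In both pairs the groups did not overlap.

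GIGYF2 minus EIF4E2 was -2.50, -2.65 and -2.35 in vehicle and -1.68, -1.88 and -1.81 in HHT, a change of 0.71. GCN1 minus EIF2AK4 was 1.68, 1.35 and 1.40 in vehicle and 0.69, 0.47 and 0.51 in HHT, a change of -0.92. These groups did not overlap either. Each of the 4 had an exact permutation p of 0.1, two-sided, the smallest possible with 3 against 3, or 0.125 adjusted over the 5 pairs, so none could pass 0.05. ASCC3 minus ASCC2, both of the ASC-1 complex, changed by -0.01 (exact permutation p = 0.9, two-sided), with means of 1.53 ± 0.204 in vehicle and 1.51 ± 0.154 in HHT (SD, n = 3). With the mean of each gene's probe sets, the change was -0.42 for PELO minus HBS1L, -0.53 for ASCC3 minus ASCC2, -0.10 for GCN1 minus EIF2AK4 (exact permutation p = 0.5), 0.42 for NEMF minus LTN1 (exact permutation p = 0.3) and 0.76 for GIGYF2 minus EIF4E2.

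The choice of scale changed the call of 4 of the 10 genes. Of the called member probe sets, 47.6% had risen as deposited, 50% after quantile normalization, 66.7% under median scaling and 68.2% under control scaling. In the same order 55.0%, 56.5%, 74.6% and 76.4% of all called genes had risen, and the difference of the median gene was -4.15e-05, 0.05, 0.24 and 0.28. These are shares of genes, so they are not matched to the member shares, which count probe sets. Over all probe sets as deposited, 7534 rose and 7650 fell. NEMF, ASCC3 and MAP3K20 rose and EIF4E2 and GCN1 fell under all 4 scales. GIGYF2 lost its call under median scaling and control scaling, and PELO under median scaling. EDF1 gained a call under each of the other scales and HBS1L under control scaling.

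**Figure D4:**
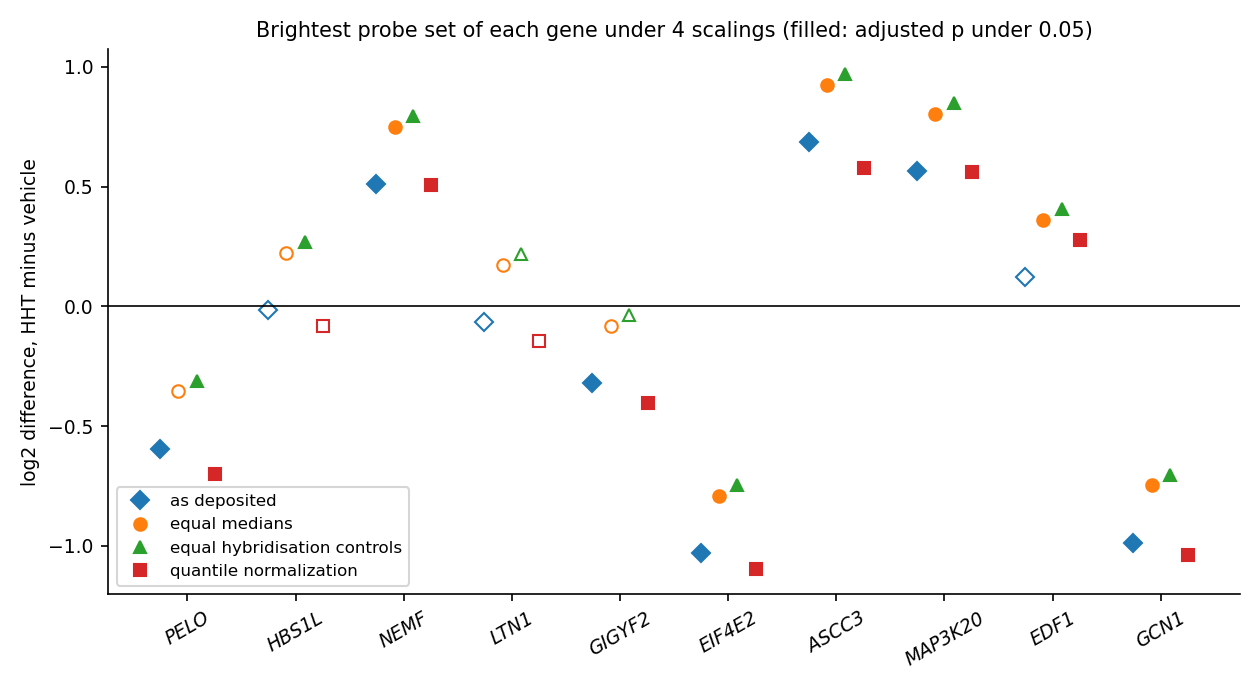
Log2 difference of the brightest probe set of each gene, HHT minus vehicle, as deposited, under median scaling (equal medians), under control scaling (equal hybridisation controls) and after quantile normalization, filled where the adjusted p from limma was under 0.05. EIF4E2 and GCN1 stay at -0.70 or below, NEMF, ASCC3 and MAP3K20 at 0.51 or above, and HBS1L and LTN1 change sign.

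Around these 10 genes, other parts of the response also moved both ways. Of 41 further genes listed by role, 36 had a tested probe set annotated to them alone, and 14 of them rose and 11 fell (29.6% and 24.2% of all genes). RACK1, USP10, MAP2K3, MAP2K7 and MAPK14 were not analysed here. The median difference of the 36 genes was 0.11. Under median scaling 17 rose and 6 fell, and under control scaling 18 rose and 7 fell. After quantile normalization 12 rose and 12 fell, and with the mean of probe sets 12 rose and 13 fell. The balance of rises and falls in the list depended on the processing, and so did that of all called genes. Of all called genes, 55.0% had risen as deposited, 74.6% under median scaling and 76.4% under control scaling. After quantile normalization 56.5% of them had risen, and 52.2% with the mean of probe sets.

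Counts by role rest on the brightest probe set of each gene, and over all genes 29.6% rose and 24.2% fell. In splitting and recycling, 1 of 3 genes rose and 1 fell. ABCE1, the ATPase that completes splitting after PELO and HBS1L, fell by 1.11 (SE 0.0823, adjusted p = 1.81e-06 by limma), from 12.39 ± 0.164 to 11.29 ± 0.0485 (SD, n = 3). Of 7 genes for collision sensing and the ASC-1 complex, 3 rose and 3 fell. The remaining gene, RNF10, was not called, but its dimmer probe set fell by 0.71 (adjusted p = 0.000207 by limma). All 3 measured partners of ASCC3 (ASCC1, ASCC2 and TRIP4) were among those that rose, which was seen after their values were known. TRIP4, which joins them in that complex, rose by 1.61 (SE 0.0664, adjusted p = 4.84e-08), or 3.06-fold, from 10.26 ± 0.0663 to 11.88 ± 0.0271. ZNF598, the ligase that ubiquitinates collided ribosomes, fell by 0.82 (SE 0.193, adjusted p = 0.00518), from 8.24 ± 0.267 to 7.42 ± 0.269. G3BP1, a stress granule protein that works with USP10 on ribosomes, fell by 1.01 (SE 0.0517, adjusted p = 1.79e-07), and the mean of its probe sets by 0.64.

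In quality control of the stalled chain, 1 of 7 genes rose and 2 fell. Of 8 genes for repression and decay of the messenger, 3 rose and 3 fell. XRN1, the exonuclease that degrades decapped messengers from the 5′ end, rose by 1.43 (SE 0.0628, adjusted p = 7.29e-08 by limma), or 2.69-fold, from 11.06 ± 0.0655 to 12.49 ± 0.0516 (SD, n = 3), and the mean of its probe sets by 0.92. SKIC8, a subunit of the Ski complex, which feeds messengers to the exosome from the other end, fell by 0.72 (SE 0.0659, adjusted p = 7.53e-06). GIGYF1, the paralogue of GIGYF2, fell by 0.87 (SE 0.206, adjusted p = 0.00539), but the mean of its probe sets, at -0.48, was not called (adjusted p = 0.225).

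Of 6 genes listed for stress kinases and their regulation, 2 rose and 1 fell. EIF2AK4, the kinase that GCN1 activates, differed by -0.07 (95% interval -0.29 to 0.15, adjusted p = 0.613 by limma), and its sign turned to 0.17 under median scaling and 0.22 under control scaling. A dimmer EIF2AK4 probe set fell by 1.72 (adjusted p = 0.00107), and the mean of both was called lower, at -0.89. Both ubiquitin ligases listed for the clearance of factors trapped on ribosomes rose. RNF25 rose by 1.79 (SE 0.249, adjusted p = 0.000151), or 3.46-fold, from a dim 5.85 ± 0.308 to 7.64 ± 0.222 (SD, n = 3). RNF14 rose by 0.94 (SE 0.0748, adjusted p = 2.87e-06). Of 3 genes for rescue of mitochondrial ribosomes, MTRES1 rose by 1.03 (SE 0.0883, adjusted p = 4.76e-06) and MRPL58 by 0.92, and MTRFR fell by 0.57. MRPL58 and MTRFR are named because the group is small, with their values known.

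**Figure D5:**
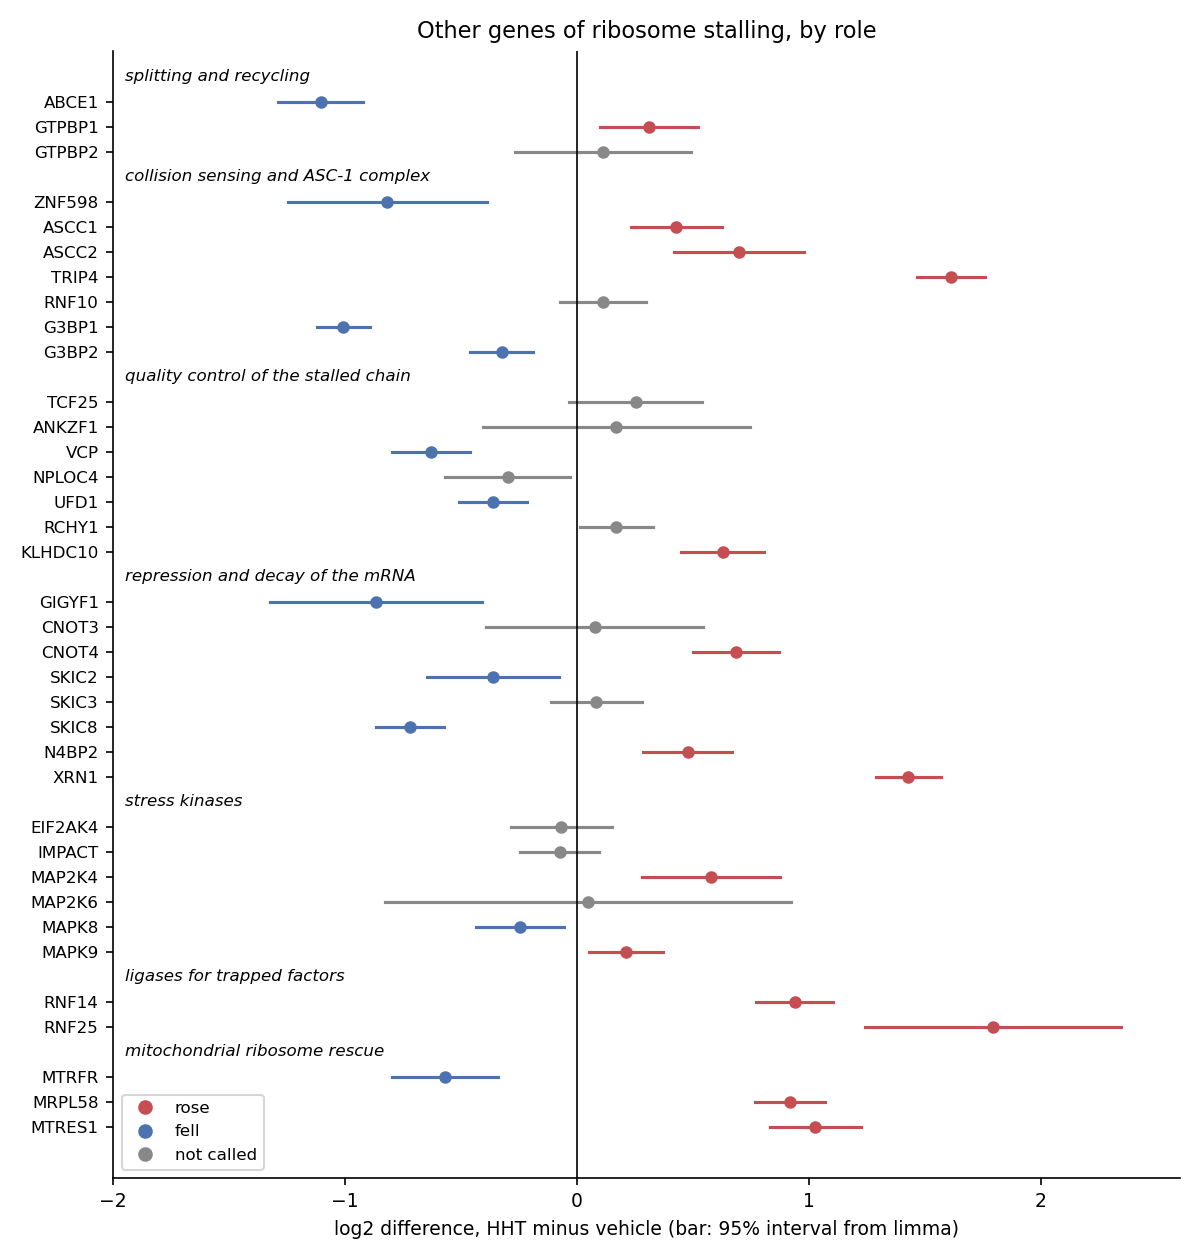
Log2 difference, HHT minus vehicle, of the brightest probe set of 36 further genes grouped by role, with 95% intervals from limma and coloured by call. The 2 ligases for trapped factors both rose, and each other role holds genes that rose and genes that fell.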

How the data were processed

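Messenger RNA of 6 Kasumi-1 samples was measured on Affymetrix HG-U133 Plus 2.0 arrays, 3 per group. The authors deposited log2 signals, 1 per probe set, made with MAS5 per the submitters' processing notes, with no version. The trimmed mean of the antilog signal (2% off each end) was 500.06 to 500.07 on every array. No pseudocount was added. The 62 control probe sets were left out, as were the 40% of the rest with the lowest mean, at a level of 4.80, and 32768 were tested. Precision is set by having 3 arrays per group.

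The test was that of limma 3.58.1 (R 4.3.3), by lmFit and eBayes with a variance trend, and p-values were adjusted by Benjamini-Hochberg. A gene was represented by its brightest single-gene probe set, with symbols updated by Entrez ID (41091 probe sets name 1 gene, 1801 several and 11721 none). Rose and fell mean called. The fit was checked on simulated data. Named from the further list were ZNF598, EIF2AK4, RACK1 and the 5 largest called rises and falls. The members and lists were chosen with earlier results of these data known.

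Alternatives were median scaling, control scaling, quantile normalization, pseudocounts of 1 and 64, no filter or 60%, no or a robust variance trend, array weights, a replicate block, stricter thresholds, averaging all probe sets of a gene, and omission of each array in turn.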

Additional observations from a re-analysis of the deposited data

How the results depend on the processing

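Of the 32 member probe sets, 19 kept direction and call under every alternative other than the stricter thresholds, and 13 did not. Under both pseudocounts, array weights and a robust trend all 32 kept them. Member probe sets that fell numbered 11 as reported, 6 under median scaling, 7 under control scaling, 7 at an adjusted p under 0.01 and 8 to 10 on leaving out an array. Those that rose numbered 10 on leaving out any array, and 0 with a change of at least 1 also required, where 2 fell. Member genes that fell numbered 4 as reported, 2 under median scaling and 3 to 4 without an array. With a change of at least 1, 1 fell and 0 rose. Those that rose numbered 3, also without any array, 5 under control scaling and 1 (NEMF) with the mean of probe sets. In the further list 11 fell and 14 rose. Under median scaling 6 fell, and 7 under control scaling. After quantile normalization 12 fell and 12 rose, and with the mean of probe sets 13 fell and 12 rose. With a change of at least 1, 2 fell and 4 rose. Without an array 9 to 11 fell and 13 to 14 rose.

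Signs turned as follows, with the cause not tested beyond the shift of scale itself. Under median scaling HBS1L 209316_s_at was 0.22, LTN1 215596_s_at 0.17, MAP3K20 222757_s_at 0.078 and EIF2AK4 0.17. Under control scaling they were 0.27, 0.22, 0.12 and 0.22. Without 1 array HBS1L 209316_s_at ran from -0.036 to 0.019 (without vehicle replicate 1; 0.0044 without HHT replicate 3), GIGYF2 237052_x_at from -0.0066 (without vehicle replicate 1) to 0.38, and EIF2AK4 from -0.17 to 0.014 (without vehicle replicate 3). The mean of the LTN1 probe sets was 0.20 (not called). From such means PELO minus HBS1L changed by -0.42, ASCC3 minus ASCC2 by -0.53 and GCN1 minus EIF2AK4 by -0.10. The changes without an array were taken from the brightest probe sets, not from such means. That of PELO minus HBS1L ran from -0.66 to -0.52 and that of ASCC3 minus ASCC2 from -0.12 to 0.08. GCN1 minus EIF2AK4 ran from -0.99 to -0.82, NEMF minus LTN1 from 0.48 to 0.71 and GIGYF2 minus EIF4E2 from 0.63 to 0.78.

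The titles number the arrays 1 to 3 in each group. Deviations of arrays of the same number were only weakly related (correlations of 0.0655, -0.0141 and 0.0491 across probe sets). Between arrays of different numbers the correlations ran from -0.0887 to 0.0424, so the first and last of the same-number values were higher than all of these. With the replicate block 10 member probe sets rose and 10 fell, and the only call changed was that of ASCC3 231269_at (adjusted p = 0.0610). Titles also number vehicle arrays before HHT arrays, so array order and treatment cannot be told apart. Of the 35 member probe sets, 2 of PELO and 1 of LTN1 were too dim to test.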

Other observations

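PELO and HBS1L are relatives of the termination factors ETF1 (eRF1) and of GSPT1 and GSPT2 (both eRF3), which were looked at after the values of PELO and HBS1L were known. ETF1, which recognises stop codons, fell by 0.64 (SE 0.0526, adjusted p = 3.62e-06 by limma), from 12.88, 12.94 and 12.95 in vehicle to 12.31, 12.25 and 12.29 in HHT, and its other probe set fell by 0.81. GSPT1, the GTPase that acts with ETF1, fell by 1.13 (SE 0.0770, adjusted p = 1.00e-06), from 12.43, 12.40 and 12.51 to 11.19, 11.28 and 11.47. Of its 5 other probe sets, 3 fell and 2 dim ones, at -0.21 and -0.51, were not called. GSPT2, its paralogue, rose by 1.11 (SE 0.104, adjusted p = 8.50e-06), from 8.64, 8.93 and 8.88 to 9.90, 9.98 and 9.90. The groups did not overlap for the 3 probe sets given by array, but did for the 2 dim ones of GSPT1.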
